A study of Mus musculus with 2 samples.

Results

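The cyclins, the cyclin-dependent kinases (CDKs), their inhibitors and activating phosphatases, the pocket proteins and the E2F transcription factors form the core machinery that drives or halts cell division. The group examined here comprised 48 genes, taken by symbol from a list of these families, and all 48 were found among the 24411 genes counted. They were measured by laser capture microdissection (LCM), in which areas of a stained section are cut out with a laser, followed by bulk RNA-seq of fresh-frozen mouse brain at embryonic day 16.5. One library came from the subventricular zone (SVZ), a germinal layer, and one from the cortex. Both areas were cut from haematoxylin and eosin stained sections, no treatment or transgene is named for either, and the mouse strain and the number of embryos and sections behind a library are not stated in the labels or methods. With 1 library per area there was no replicate and no test between areas. Each ratio therefore has an exact (Clopper-Pearson) 95% interval of its read counts, which covers the counting error of reads only. It treats every read as independent, although PCR copies were not removed, and can be too narrow for that reason. It also leaves out variation between animals, sections and dissections, and the choice of scaling. The libraries held 51435667 (SVZ) and 22050693 (cortex) reads assigned to genes, and levels are given as CPM, each library's reads scaled to a common gene-assigned total (1e+06). For a gene with 0 reads the upper limit was taken as 3 reads, which equals 0.0583 CPM in SVZ and 0.136 CPM in cortex.

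Progress through the cycle depends on kinases that act only when bound to a cyclin. D-type cyclins with Cdk4 and Cdk6 phosphorylate the retinoblastoma (pocket) proteins, which releases E2F factors to switch on genes of DNA synthesis. Cyclin E and cyclin A with Cdk2 carry the cell into and through S phase, and cyclin B with Cdk1 drives mitosis until the anaphase-promoting complex (APC/C) destroys it. In the embryonic brain the germinal layers hold dividing progenitors, whereas neurons have left the cycle and use Cdk5, a relative of Cdk1 that is switched on by the neuronal proteins encoded by Cdk5r1 and Cdk5r2, in migration and differentiation.

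The tissue labels were set beside marker lists. How far the area labelled SVZ took in neighbouring germinal layers was not tested. Of the 10 apical progenitor markers 9 passed a mean of 1 CPM over both libraries and all 9 were higher in SVZ by 4-fold or more (summed level 6623 CPM in SVZ and 143 in cortex), as were all 6 intermediate progenitor markers (1065 and 52.9 CPM). Fabp7 alone held 4973 and 39.0 CPM of the apical sums, which take in all 10 genes. All 10 neuronal markers had the higher level in cortex (3771 and 11053 CPM), 5 of them by at least 4-fold, and neuronal transcripts were also read in SVZ. In bulk samples, fewer cells of a type and less RNA per cell cannot be told apart.

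Most of the regulators were read more in the SVZ. Of the 48 genes 46 had a mean of at least 1 CPM. Of these, 20 were higher in SVZ by 4-fold or more (10.2% of all 12738 genes with that mean were) and 2 were higher in cortex by 4-fold or more (7.01% of all genes). At 10-fold the counts were 14 in SVZ (5.60% of all genes) and 0 in cortex (2.99%), and at 2-fold 26 (20.0%) and 3 (15.6%). Of the 14, Ccna2 and Ccne2 fell short of 10-fold when the counts of both strands were added (log2 ratios 3.13 and 3.10). Such sums can include reads of an overlapping gene on the opposite strand. With a mean of at least 10 CPM, 16 of 37 regulators passed 4-fold in SVZ (6.75% of the 9027 genes at that level) and 1 in cortex (4.70%). The 20 were Ccna1, Ccna2, Ccnb1, Ccnb2, Ccnd1, Ccne1, Ccne2, Ccnf, Cdk1, Cdk2, Cdk6, Cdkn2c, Cdkn3, Cdc25c, Wee1, Rbl1, E2f1, E2f2, E2f5 and Cdc20, and the 2 were Cdkn1c and Cdk5r2. The median log2 ratio (SVZ CPM over cortex CPM) was 1.31 over the 46 regulators and 0.11 over all genes, whose middle 50% lay between -0.56 and 0.76. The counting interval excluded equal levels for all 46, with 39 higher in SVZ (48.2% of all genes) and 7 higher in cortex (38.6% of all genes). Some genes lay near the 4-fold line, with Ccna1 at 4.02-fold and E2f1 at 4.09-fold just past it and Ccnd2 at 3.85-fold and E2f8 at 3.54-fold just short of it. Cdkn2a and Cdkn2b were near the detection limit in both areas, with 0 and 13 reads in SVZ and 1 and 6 in cortex.

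**Figure D1:**
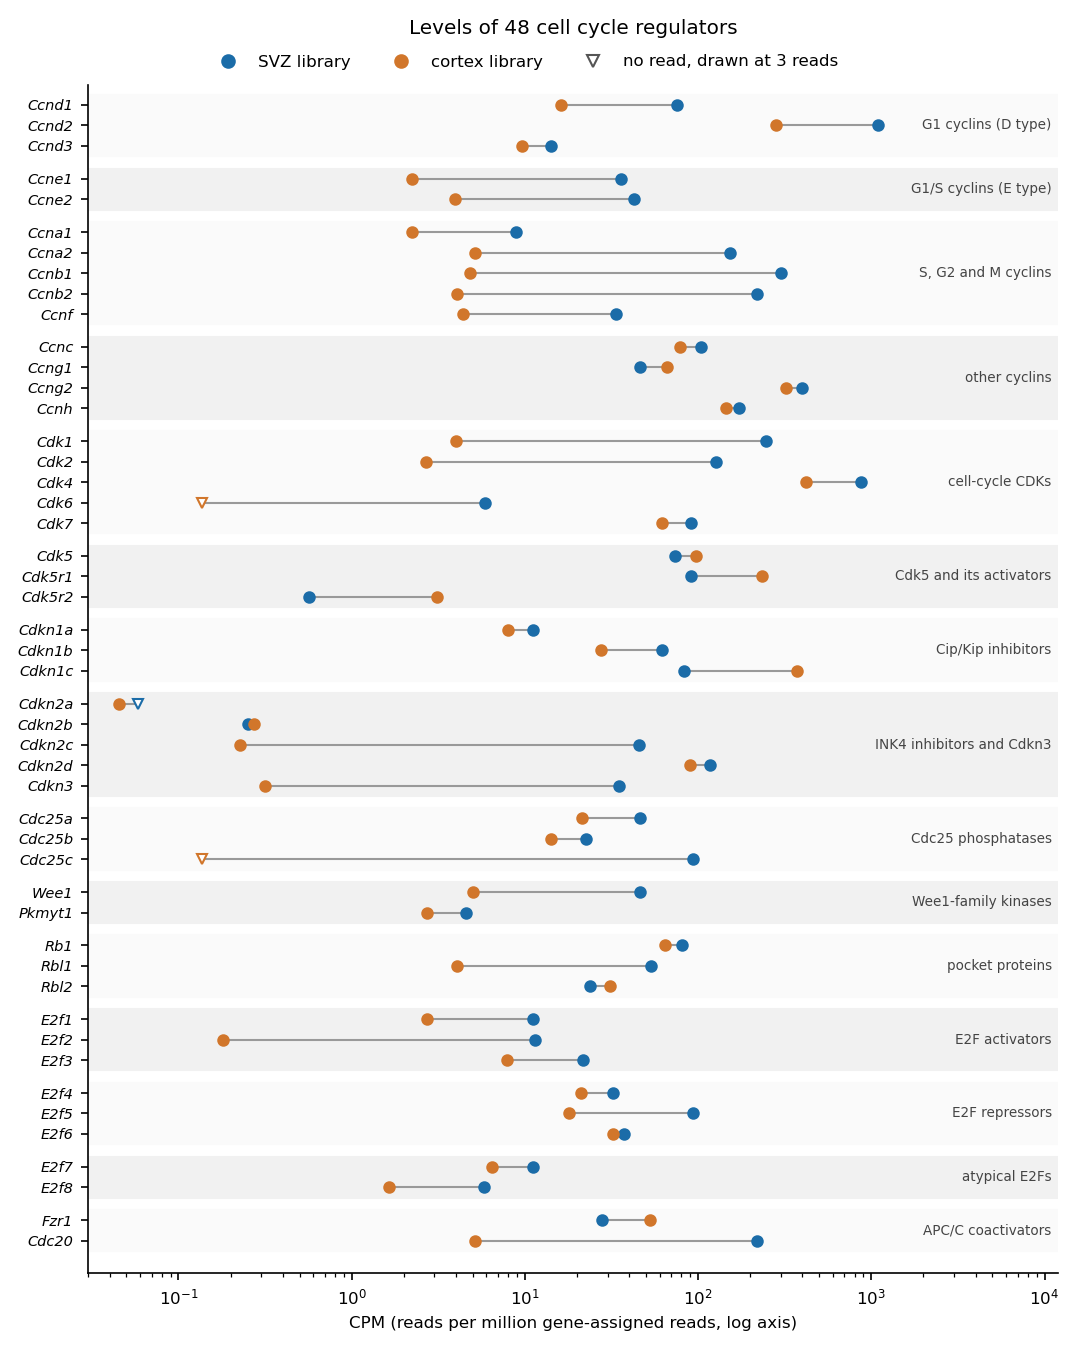
Level of each of the 48 regulators in CPM (log axis) in SVZ (blue) and in cortex (orange), grouped by role, with 1 library per area. Cdk1, Cdc20 and the B cyclins lie above 200 CPM in SVZ and near 4 to 5 CPM in cortex, whereas Cdk4 and Ccng2 lie above 300 CPM in both.

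Markers of other cell types were also read at different levels. Choroid plexus markers summed to 246 CPM in SVZ and 0.726 CPM in cortex, almost all from Ttr, with 4 of 5 at 0 in cortex. All 7 microglial markers were higher in SVZ (53.6 and 5.53 CPM), with Trem2 at 0 in cortex. Blood vessel markers were close (149 and 112 CPM, 5 of 8 higher in SVZ), oligodendrocyte precursor markers summed to 12.1 and 12.0 CPM, and meningeal markers to 4.59 and 9.39 CPM. Erythroid markers summed to 20.4 and 10.9 CPM, and 4 of 7 (Hba-a1, Hba-a2, Hbb-bs and Hbb-bt) were at 0 in both libraries. Reads mapped to several places, 8.20% in SVZ and 6.89% in cortex, were not counted to genes. Whether they include reads of these 4 genes was not tested. The part of all these cell types in the values of the regulators was not tested.

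Since Cdk1, Ccnb1, Ccnb2 and Cdc20 all had far higher levels in SVZ, promoter letters are shown before the values by role. RefSeq promoter windows on GRCm38.p6, from 250 bases before to 50 bases after a transcription start, were found for 34 of the 48 genes (40 windows). Each was searched on both strands for an E2F motif (TTTGGCGC, TTTCCCGC, TTTCGCGC or TTTGCCGC), for the cell cycle genes homology region or CHR (TTTGAA), through which the DREAM and MuvB complexes bind, and for CCAAT, the motif of NF-Y. None of these motifs contains another. Cdk1 and Cdc20 are shown as mitotic genes with CHR and CCAAT letters close to the start, Ccnb2 for its 3 CCAAT, Cdk2 and Rbl1 for an E2F motif, and Cdk5r2 as a gene read more in the cortex. The 250 bases before the start are given 5′ to 3′ on the strand of the gene, with motif letters in capitals (ATTGG and GCGGGAAA are motifs read on the other strand).
Cdk1 (chr10:69352913-69353162, minus strand): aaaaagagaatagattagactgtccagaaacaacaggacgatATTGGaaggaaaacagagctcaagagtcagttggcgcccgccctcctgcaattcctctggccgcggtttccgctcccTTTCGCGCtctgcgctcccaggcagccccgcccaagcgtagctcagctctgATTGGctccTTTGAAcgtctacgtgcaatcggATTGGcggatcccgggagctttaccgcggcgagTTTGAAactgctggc
Ccnb2 (chr9:70421555-70421804, minus strand): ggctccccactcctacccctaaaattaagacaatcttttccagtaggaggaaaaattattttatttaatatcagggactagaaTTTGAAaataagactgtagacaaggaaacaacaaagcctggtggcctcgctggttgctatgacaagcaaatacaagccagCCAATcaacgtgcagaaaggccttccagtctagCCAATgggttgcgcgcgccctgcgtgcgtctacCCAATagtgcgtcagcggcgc
Cdc20 (chr4:118437344-118437593, minus strand): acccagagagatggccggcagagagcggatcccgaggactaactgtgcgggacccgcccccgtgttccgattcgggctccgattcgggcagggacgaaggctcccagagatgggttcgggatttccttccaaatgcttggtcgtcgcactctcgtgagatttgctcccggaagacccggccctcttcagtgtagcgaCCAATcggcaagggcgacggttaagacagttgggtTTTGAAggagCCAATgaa
Cdk2 (chr10:128705052-128705301, minus strand): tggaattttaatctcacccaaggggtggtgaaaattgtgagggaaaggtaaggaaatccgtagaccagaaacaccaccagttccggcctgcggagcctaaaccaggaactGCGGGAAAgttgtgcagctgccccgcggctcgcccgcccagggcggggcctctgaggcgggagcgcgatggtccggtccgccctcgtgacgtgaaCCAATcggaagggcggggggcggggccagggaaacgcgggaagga
Rbl1 (chr2:157204535-157204784, minus strand): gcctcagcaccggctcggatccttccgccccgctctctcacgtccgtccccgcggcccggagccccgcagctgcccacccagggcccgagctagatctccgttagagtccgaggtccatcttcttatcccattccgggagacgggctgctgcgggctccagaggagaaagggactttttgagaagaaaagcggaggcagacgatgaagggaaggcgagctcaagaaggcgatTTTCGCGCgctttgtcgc
Cdk5r2 (chr1:74854779-74855028, plus strand): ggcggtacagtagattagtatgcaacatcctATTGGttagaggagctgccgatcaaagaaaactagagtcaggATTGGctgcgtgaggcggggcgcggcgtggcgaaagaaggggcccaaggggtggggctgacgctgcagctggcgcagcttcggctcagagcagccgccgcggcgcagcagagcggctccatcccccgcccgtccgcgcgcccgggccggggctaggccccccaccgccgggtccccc

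The Cdk1 window held 2 CHR matches, the nearer at positions -15 to -10 from the start, 3 CCAAT matches and an E2F match at -131 to -124. In Cdc20 the CHR letters lay at -18 to -13, with CCAAT at -53 to -49 and at -8 to -4. In Ccnb2 the CCAAT matches lay at -87 to -83, -54 to -50 and -21 to -17, and 1 of its CHR matches lay past the start, at 5 to 10. The Ccnb1 window held CCAAT at -99 to -95 and at -67 to -63. In Rbl1 the E2F letters lay at -18 to -11, and in Cdk2 at -140 to -133. An E2F match was found in 8 of the 40 regulator windows (20.0%), in 2.26% of all 32851 windows and in 3.81% of the windows of genes read at 1 CPM or more on average. A CHR match was found in 10 regulator windows, against 17.9% of all windows and 11.6% of those of genes at 1 CPM. A CCAAT match was found in 24 (60.0%), against 37.4% and 37.8%. Windows were found for 14 of the 20 genes at least 4-fold higher in SVZ. Among these 16 windows, 4 held E2F letters (25%), 6 CHR letters (37.5%) and 11 CCAAT letters (68.8%). The windows of all genes past 4-fold in SVZ held them in 5.15%, 17.9% and 40.8%. In the 24 windows of the other regulators, which include the barely read Cdkn2a and Cdkn2b, the numbers were 4, 4 and 13. The motifs were picked for their known link to cell cycle genes, and no difference between these shares was tested. A match describes the letters and is not a measured binding site.

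As a group the A and B cyclins and Ccnf, which act from S phase to mitosis, summed to 716 CPM in SVZ and 20.7 CPM in cortex, 34.5-fold apart, and 18.9-fold apart in the summed stranded counts (773 and 40.9 CPM). All 5 were past 4-fold, but Ccna1, at 4.02-fold, fell short of it under TMM, DESeq2 and upper-quartile scaling, without the most read genes and with a pseudocount of 1 CPM. Ccnb1 (chromosome 13, 100778650 to 100786570, GRCm38), a B cyclin of Cdk1, had 15400 reads (299 CPM) in SVZ and 107 reads (4.85 CPM) in cortex, a log2 ratio of 5.95 (5.67 to 6.24). Ccnb2 (chromosome 9, 70407692 to 70421547), the other B cyclin counted, had 11308 and 90 reads (219.8 and 4.08 CPM), a log2 ratio of 5.75 (5.45 to 6.07). The intervals of the B cyclins overlapped, so that their ratios could not be separated at this depth. Ccna2 (chromosome 3, 36564865 to 36572150), the A cyclin of dividing somatic cells, had 7908 and 114 reads (154 and 5.17 CPM), with a log2 ratio of 4.89 (4.63 to 5.17). Its exons overlap those of Exosc9 on the opposite strand over 378 bases, and with the stranded counts added up it was counted at 11828 and 579 reads, and the log2 ratio was 3.13 (3.01 to 3.25), still past 4-fold. Ccna1, the A cyclin best known from the germ line, was far lower, with 460 and 49 reads (8.94 and 2.22 CPM). Ccnf, which encodes an F-box protein that marks substrates for destruction rather than a CDK partner, had 33.6 and 4.40 CPM, a log2 ratio of 2.93.

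The summed E cyclins were 12.8-fold higher in SVZ (78.7 and 6.17 CPM, and 9.35-fold from the summed stranded counts) and the summed D cyclins, which act in G1, 3.82-fold (summed level 309 CPM in cortex). In the unstranded counts the E cyclins, partners of Cdk2, were both at least 10-fold higher in SVZ. Ccne1 had 1840 and 49 reads (log2 ratio 4.01, 3.60 to 4.45) and Ccne2 had 2208 and 87 reads (3.44, 3.13 to 3.77). Ccne2 overlaps Ints8 on the opposite strand over 336 bases and had 8849 and 440 reads in the summed stranded counts. Its log2 ratio there was 3.10, short of 10-fold. Ccnd2 (chromosome 6, 127125162 to 127152193), the D cyclin with the most reads in both areas, had 56110 reads (1091 CPM) in SVZ and 6242 reads (283 CPM) in cortex, a log2 ratio of 1.95 (1.91 to 1.98). Of the CPM of the 48 genes it was the highest in SVZ. Ccnd1 had 3861 and 355 reads (75.1 and 16.1 CPM, log2 ratio 2.22, 2.06 to 2.38), and Ccnd3 had 723 and 213 reads (14.1 and 9.66 CPM, 0.54, 0.32 to 0.77). Per kilobase of exon, Ccnd2 held 86.3% of the D cyclin signal in SVZ and 83.6% in cortex, Ccnd1 10.7% and 8.54%, and Ccnd3 3.05% and 7.83%. In the unstranded counts the E, A and B cyclins were below 6 CPM in cortex and Ccnd2 was at 283 CPM. From the summed stranded counts, which can include reads of Exosc9 and Ints8, Ccna2 stood at 25.7 CPM and Ccne2 at 19.5 CPM in cortex.

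The cyclins that do not time the cycle stayed close in both areas. Ccnh, the partner of Cdk7 in the CDK-activating kinase and in transcription, had 172 and 146 CPM (log2 ratio 0.24), and Ccnc, a subunit of the Mediator kinase module, 104 and 78.7 CPM (0.40). Ccng2, a cyclin linked to arrest rather than to division, had the second highest CPM of the cyclins among the 48 genes in SVZ and the highest in cortex, at 398 and 320 CPM (0.31). Ccng1, a p53 target, was the one cyclin among the 48 genes with the higher level in cortex, with 46.0 and 65.8 CPM and a log2 ratio of -0.52 (-0.61 to -0.42). No gene of this group reached 2-fold.

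Among the kinases, Cdk1 and Cdk2 fell apart from Cdk4, Cdk7 and Cdk5. Cdk1 (chromosome 10, 69335146 to 69352938), the kinase of mitosis, had 12699 reads (247 CPM) in SVZ and 88 reads (3.99 CPM) in cortex, a log2 ratio of 5.95 (5.65 to 6.27). Cdk2 (chromosome 10, 128697939 to 128705031) had 6511 and 59 reads (127 and 2.68 CPM), with a log2 ratio of 5.56 (5.19 to 5.96). Their intervals overlapped each other. Cdk4 (chromosome 10, 127063534 to 127067920), the G1 kinase, had 45011 and 9234 reads (875 and 419 CPM), only 2.09-fold higher in SVZ, and ranked first of the 48 genes per kilobase in both libraries (426 and 204 CPM per kb). Cdk6, its alternative in G1, had 304 reads (5.91 CPM) in SVZ and 0 in cortex. With the cortex count set at 3 reads Cdk6 was 43.4-fold higher in SVZ, and the exact lower counting limit was 35.1-fold. It held 0.12% of the summed Cdk4 and Cdk6 signal per kilobase in SVZ. Cdk7 stood at 91.3 and 62.1 CPM (log2 ratio 0.56).

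**Figure D2:**
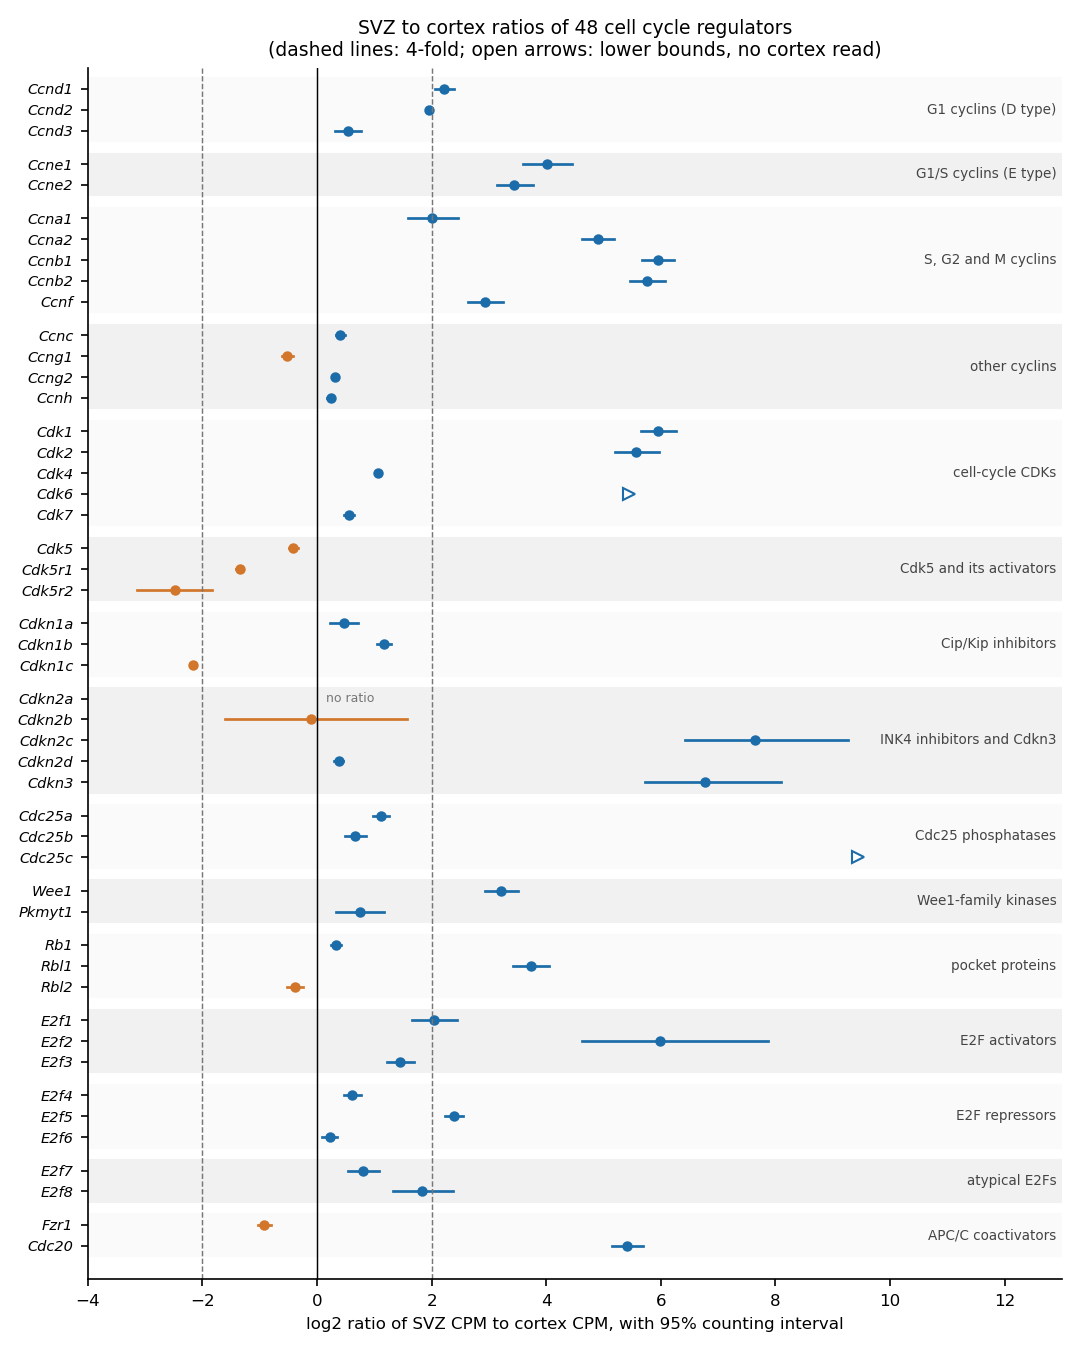
Log2 of the SVZ level over the cortex level in CPM (x axis) for each regulator by role, with its exact 95% counting interval as a bar (blue higher in SVZ, orange higher in cortex, dashed lines at 4-fold). Cdc25c and Cdk6, with no cortex read, are drawn as open arrows at the floor ratio without a bar, and Cdkn2a has no ratio. Cdc25c, Cdkn2c and Cdkn3, with 0, 5 and 7 cortex reads, lie farthest to the SVZ side. Cdk5r2 and Cdkn1c lie past 4-fold on the cortex side.

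Cdk5 and its activators leaned to the cortex. Cdk5 (chromosome 5, 24418241 to 24423530) had 3761 reads (73.1 CPM) in SVZ and 2146 reads (97.3 CPM) in cortex, a log2 ratio of -0.41 (-0.49 to -0.34). Cdk5r1 (chromosome 11, 80477023 to 80481184), its main activator by level, had 4694 and 5129 reads (91.3 and 233 CPM), with a log2 ratio of -1.35 (-1.41 to -1.29). The activator thus differed more than the kinase. Cdk5r2 (chromosome 1, 74854934 to 74857732) was low, with 29 and 69 reads (0.564 and 3.13 CPM), a log2 ratio of -2.47 (-3.15 to -1.83), and made up 0.91% and 1.96% of the activator signal per kilobase. Of the summed signal of Cdk1, Cdk2 and Cdk5, Cdk5 held 24.8% per kilobase in SVZ and 95.9% in cortex. By plain reads its share was 16.4% (15.9 to 16.9) and 93.6% (92.5 to 94.6).

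The inhibitors did not move as a block. Cdkn1c (chromosome 7, 143458339 to 143461050) is an imprinted gene whose product, an inhibitor of the Cip/Kip type, binds cyclin and CDK complexes. It had 4283 reads (83.3 CPM) in SVZ and 8245 reads (374 CPM) in cortex, a log2 ratio of -2.17 (-2.22 to -2.11). It ranked second of the 48 genes per kilobase in cortex and 14th in SVZ. Its relatives were higher in SVZ, Cdkn1b with 3184 and 609 reads (61.9 and 27.6 CPM, log2 ratio 1.16, 1.04 to 1.29) and Cdkn1a, the p53 target, with 571 and 177 reads (11.1 and 8.03 CPM, 0.47, 0.22 to 0.72). Cdkn1c accounted for 70.8% of the Cip/Kip signal per kilobase in SVZ and 95.5% in cortex. The summed level of the 3 genes was 156 CPM in SVZ and 410 CPM in cortex.

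The INK4 inhibitors, which bind Cdk4 and Cdk6, were divided in another way. Cdkn2c (chromosome 4, 109660876 to 109667189) had 2333 reads (45.4 CPM) in SVZ and 5 reads (0.227 CPM) in cortex, a log2 ratio of 7.64 (6.42 to 9.27). Cdkn2d (chromosome 9, 21288410 to 21291407) had 5997 and 1983 reads (117 and 89.9 CPM), with a log2 ratio of 0.37 (0.30 to 0.45). Cdkn2d held 82.2% of the INK4 signal per kilobase in SVZ and 99.5% in cortex, so that an INK4 transcript was read in both areas but Cdkn2c almost only in SVZ. Cdkn3 (chromosome 14, 46760541 to 46771669), a phosphatase that acts on CDKs despite its inhibitor-like symbol, had 1790 and 7 reads (34.8 and 0.317 CPM), a log2 ratio of 6.78 (5.73 to 8.09).

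**Figure D3:**
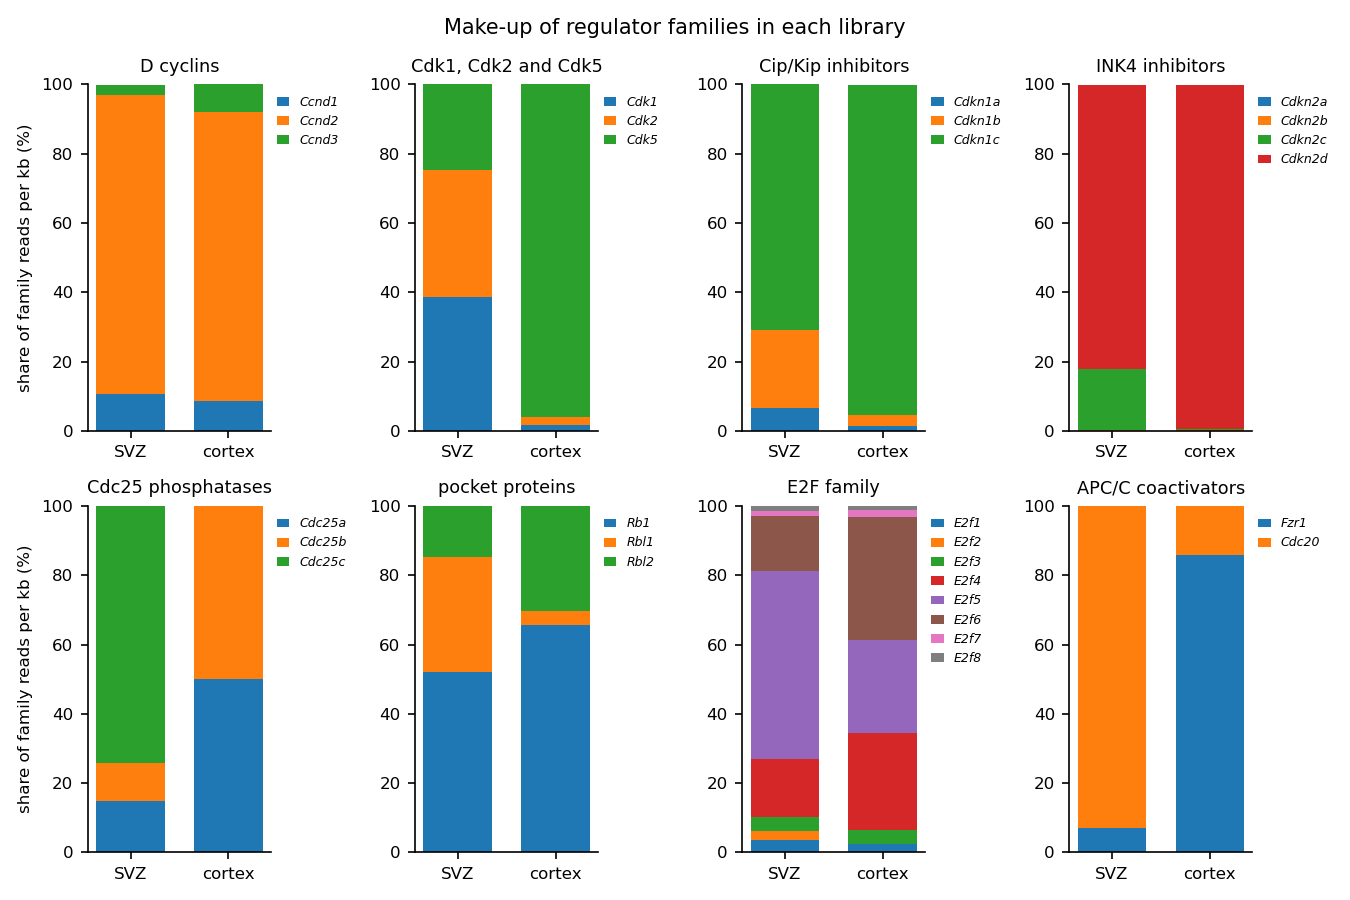
Share of each gene in the reads per kilobase of its family (y axis, percent) in the SVZ and the cortex library. Cdc20 makes up 93.1% of the APC/C coactivator signal in SVZ and 14.3% in cortex, whereas Ccnd2 dominates the D cyclins in both. Cdk5 holds 24.8% of the summed Cdk1, Cdk2 and Cdk5 signal in SVZ and 95.9% in cortex. The level of Cdk5 itself was only 1.33-fold higher in cortex, where Cdk1 and Cdk2 were far lower.

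The gate to mitosis is set by Wee1 and Pkmyt1, kinases that hold Cdk1 inactive, and by Cdc25 phosphatases, which release it. Cdc25c (chromosome 18, 34732993 to 34751533) had 4838 reads (94.1 CPM) in SVZ and none in cortex. With the cortex count set at 3 reads it was 691-fold higher in SVZ, and the exact lower counting limit was 562-fold. Cdc25a (46.0 and 21.3 CPM, log2 ratio 1.11) and Cdc25b (22.4 and 14.1 CPM, 0.67) differed far less. Per kilobase Cdc25c held 74.1% of the phosphatase signal in SVZ, while in cortex the signal was shared between Cdc25a (50.1%) and Cdc25b (49.9%). Wee1 (chromosome 7, 110122046 to 110143286) had 2379 and 110 reads (46.3 and 4.99 CPM), a log2 ratio of 3.21 (2.94 to 3.50). Pkmyt1 had 234 and 60 reads (log2 ratio 0.74), overlaps Paqr4 on the opposite strand, and had a log2 ratio of 0.31 in the summed stranded counts.

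At the end of mitosis the APC/C is directed first by Cdc20 and then, in mitotic exit and G1, by the product of Fzr1. Cdc20 (chromosome 4, 118432901 to 118437352) had 11310 reads (219.9 CPM) in SVZ and 114 reads (5.17 CPM) in cortex, a log2 ratio of 5.41 (5.14 to 5.69). Fzr1 (chromosome 10, 81366222 to 81378516) had 1436 and 1169 reads (27.9 and 53.01 CPM), a log2 ratio of -0.93 (-1.04 to -0.81). The coactivators thus lay on opposite sides, and by plain reads Cdc20 made up 88.7% (88.2 to 89.3) of their sum in SVZ and 8.89% (7.39 to 10.6) in cortex.

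Of the pocket proteins, which hold E2F factors in check, Rbl1 alone was past 4-fold. Rb1 (chromosome 14, 73183673 to 73325822), the retinoblastoma gene, had 4143 and 1411 reads (80.5 and 64.0 CPM, log2 ratio 0.33, 0.24 to 0.42). Rbl1 (chromosome 2, 157145893 to 157204534), itself known as an E2F target, had 2758 and 89 reads (53.6 and 4.04 CPM, log2 ratio 3.73, 3.43 to 4.05). Rbl2, the pocket protein of the DREAM complex in resting cells, had 1226 and 688 reads (23.8 and 31.2 CPM, -0.39, -0.52 to -0.25). Rbl2 overlaps Aktip over 418 bases, and its log2 ratio was -0.10 in the summed stranded counts (2447 and 1119 reads), where the counting interval (-0.20 to 0.01) reached equal levels. Per kilobase, Rbl1 made up 33.3% of the pocket protein signal in SVZ and 3.97% in cortex.

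Among the E2F factors, each of the 8 had the higher level in SVZ, but 3 passed 4-fold. Of the activators, E2f2 (chromosome 4, 136172394 to 136196057) had 592 reads (11.5 CPM) in SVZ and 4 reads (0.181 CPM) in cortex, a log2 ratio of 5.99 (4.62 to 7.87). E2f1 had 573 and 60 reads (11.1 and 2.72 CPM, 2.03, 1.65 to 2.44) and E2f3 1115 and 175 reads (21.7 and 7.94 CPM, 1.45, 1.22 to 1.69). E2f1 fell short of 4-fold under TMM, DESeq2 and upper-quartile scaling. Of the repressors, E2f5 (chromosome 3, 14578641 to 14606309) stood out with 4832 and 396 reads (93.9 and 17.96 CPM, 2.39, 2.24 to 2.54). In the summed stranded counts its log2 ratio was 1.96, just short of 4-fold. E2f4 (32.3 and 21.1 CPM, 0.61) and E2f6, which acts without pocket proteins (37.4 and 32.2 CPM, 0.22), were close. The atypical E2Fs, which repress E2F targets late in the cycle, were low, E2f7 with 11.2 and 6.44 CPM (0.80) and E2f8 with 5.77 and 1.63 CPM (1.82). E2f5 held 54.2% of the E2F signal per kilobase in SVZ, and in cortex E2f6 held 35.4% and E2f5 26.8%. That order in cortex turned in the summed stranded counts, with 31.3% for E2f6 and 35.2% for E2f5.

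Reads that fall on exons of 2 overlapping genes are set aside as ambiguous when strand is ignored. In the annotation 13 of the regulators share exon bases with a gene on the opposite strand, and the ratios were therefore compared with the sum of the 2 stranded columns. The log2 ratio moved by over 0.1 for Ccna2, Ccne2, Ccnd3, E2f5, Pkmyt1 and Rbl2. Ccna2 moved most, from 4.89 to 3.13. The first stranded column held 49.6% of the stranded reads in SVZ (26155781 of 52682407) and 49.7% in cortex (11191789 of 22530872), and between 45.7% and 53.01% of those of these 6 genes. With strands this even, the further reads could not be given to either partner. A read on shared exons can enter the sum of each partner, so that the sum can exceed a gene's own reads. The other regulators moved by less than 0.1. None of the ratios changed sign.

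**Figure D4:**
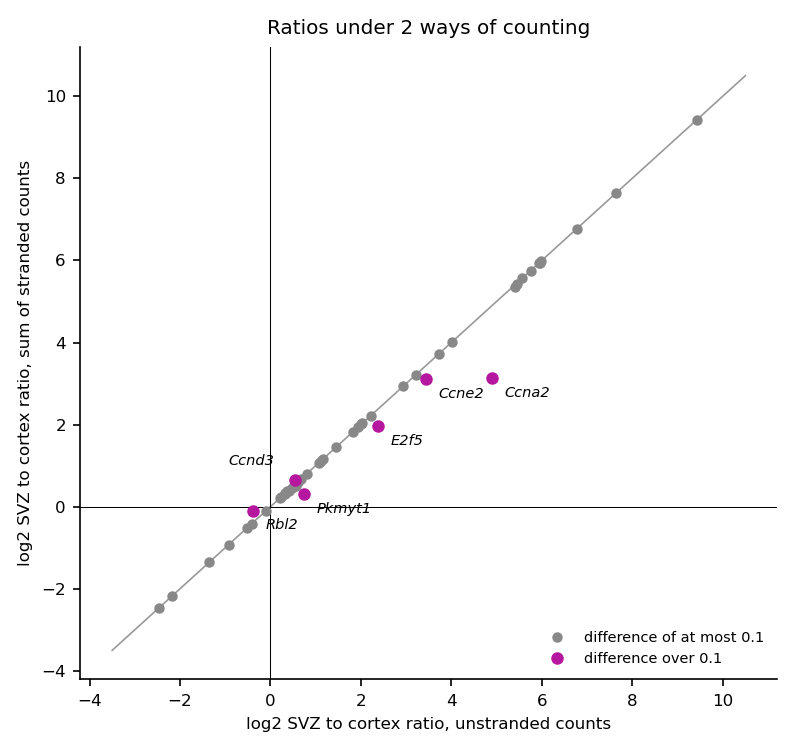
Log2 SVZ to cortex ratio of each regulator from the unstranded counts (x axis) and from the sum of the stranded counts (y axis), with the line of equality. Points on the line did not change with the counting, and the purple points, led by Ccna2, moved by over 0.1.

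The genes that work with the regulators were described from 6 lists with 98 genes in all, counted by the same 4-fold rule. Over all 12738 genes 10.2% were past 4-fold in SVZ, 7.01% in cortex, and 54.9% had the higher level in SVZ whatever its size. The CDK partners and licensing regulators leaned most to SVZ, with 10 of the 11 genes that passed 1 CPM at least 4-fold higher there and a median log2 ratio of 4.58. Plk1, a mitotic kinase (76.4 and 0.816 CPM, 6.55), Cdc6, which loads the replicative helicase (61.2 and 1.32 CPM, 5.54), and Aurka, a centrosomal kinase (100.1 and 2.81 CPM, 5.15), led the list. Of 20 E2F target genes of DNA synthesis, 13 were at least 4-fold higher in SVZ and all 20 were higher there, with a median of 3.03. Tk1, a thymidine kinase (85.2 and 1.59 CPM, 5.75), Mcm3, a helicase subunit (162 and 4.26 CPM, 5.24), and Gins2, of the same helicase (52.8 and 2.40 CPM, 4.46, and 2.84 from the stranded counts), had the largest ratios. The E2F and DREAM partners divided, with 3 of 10 past 4-fold and a median of 1.03. These were Foxm1 (1068 and 3 reads, log2 ratio 7.25, 5.70 to 9.53), Mybl2 (5.85 and 0.181 CPM, 5.01) and Mybl1 (5.23 and 0.227 CPM, 4.53), transcription factors that act with the MuvB core. All 10 were higher in SVZ.

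The other 3 lists had medians between -0.01 and 0.44, beside 0.11 for all genes. Of 20 subunits of the APC/C and SCF ubiquitin ligases, 1 was past 4-fold, Ube2c, the ubiquitin carrier of the APC/C (192 and 3.31 CPM, log2 ratio 5.86), and the median was 0.35. Of 21 transcriptional and other CDKs and cyclins that passed, none was past 4-fold in either direction, 10 were higher in SVZ and 11 in cortex (8 and 9 with an interval that excluded equal levels), and the median was -0.01. In a list of 13 Myc, p53 and antiproliferative genes the median was 0.44. Gadd45g and Btg2, which also stand in the intermediate progenitor list, were past 4-fold in SVZ (341 and 14.6 CPM, 173 and 23.3 CPM), and Myc was past 4-fold in cortex (15.9 and 69.0 CPM, log2 ratio -2.12).

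**Figure D5:**
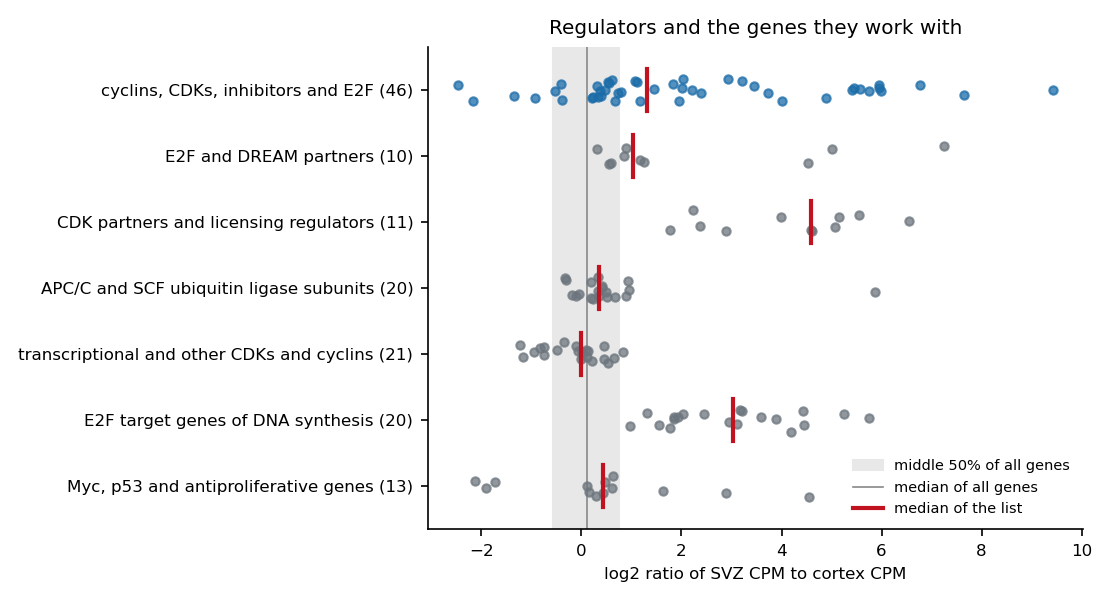
Log2 of the SVZ level over the cortex level in CPM (x axis) for each gene with a mean of at least 1 CPM, for the regulators (blue) and the 6 lists of genes that work with them (grey, number of genes in brackets), with each list's median in red and the middle 50% of all genes shaded. The transcriptional CDKs and cyclins lie around the median of all genes, and the CDK partners and the E2F targets of DNA synthesis lie to the SVZ side.

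Within each library the order of the 48 genes was taken per kilobase of annotated exon. In SVZ the order began with Cdk4 (426 CPM per kb), Ccnd2 (163), Ccnb2 (144), Ccng2 (128), Cdc20 (123) and Ccnb1 (120.3). In cortex it began with Cdk4 (204), Cdkn1c (193), Ccng2 (103), Cdkn2d (61.0), Cdk5r1 (55.9) and Ccnh (53.1). The first 3 genes of each order were the same when the longest transcript was used as the length. In cortex Cdk1 ranked 37th and Cdk2 35th of 48, and in SVZ they ranked 9th and 11th. Summed over the 48 genes, the level was 5402 CPM in SVZ and 2558 CPM in cortex, 2.11-fold apart.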

How the data were processed

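RNA from laser-cut areas was extracted with a small-input column kit, and libraries were prepared for small amounts of RNA and read from both ends. According to the study's methods the authors removed adapters with cutadapt 4.1, mapped read 1 to mm10 (equal to GRCm38) with STAR 2.7.9a and deposited counts of reads per gene, not normalized, in an unstranded and 2 stranded columns. No molecular identifiers are named for these libraries, so PCR copies could not be removed. The counting intervals do not allow for such copies. A deposited table holding the authors' CPM, fold change and log10 change was not used.

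The unstranded counts were divided by the gene-assigned total, and the log2 ratio of SVZ to cortex CPM was taken without a pseudocount. A count of 0 was set at 3 reads for the ratio, and the exact lower counting limit is printed beside it. Intervals are exact 95% Clopper-Pearson intervals of the SVZ share of a gene's reads. Calls needed 4-fold and a mean over both libraries of 1 CPM or more. No p-value was computed. Lengths are unions of exons from the GENCODE M21 basic set. Every member may be named, and of each pathway list the 3 genes with the largest ratio past 4-fold in each direction. The members and lists were chosen with earlier results of these data known. Alternatives were size factors of DESeq2 1.42.0, TMM and upper-quartile factors of edgeR 4.0.16 (R 4.3.3), totals that leave out each library's 10 most read genes, the stranded sum, the SVZ library thinned to the cortex total, 1 CPM added to both levels, and other minimums and folds. Intervals came from scipy 1.17.1 under Python 3.11.15, with pandas 2.3.3 for tables, and the procedures were tested on simulated data.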

Additional observations from a re-analysis of the deposited data

Results flagged for a closer look

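A signal outside the unstranded counts was found for 4 of the regulators, whose summed stranded counts were over 1.5 times the unstranded count in at least 1 library. For Ccne2 the stranded columns held 6641 further reads in SVZ and 353 in cortex. For Ccna2 they held 465 further reads in cortex, where the unstranded count was 114. For Rbl2 the further reads were 1221 (SVZ) and 431 (cortex), and for Pkmyt1 248 and 106. Each shares exon bases with an oppositely transcribed neighbour (Ints8, Exosc9, Aktip and Paqr4 in turn). From which gene of a pair the reads came was not tested.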

How the results depend on the processing

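No paired analysis was possible because SVZ and cortex have a single library each, and none could be left out. The number of regulators at least 4-fold higher in SVZ (20) ranged from 14 (at least 10-fold) to 26 (at least 2-fold) and was 18 or 19 under the other scalings and the stranded sum. Cdkn1c and Cdk5r2 made up the cortex count of 2, which became 1 with a pseudocount of 1 CPM, with a mean of at least 10 CPM (16 of 37 regulators then passed in SVZ) and when the whole interval had to pass 4-fold, and 0 at 10-fold. The median log2 ratio of 1.31 became 2.20 as a mean and lay between 1.16 and 1.31 otherwise. Scaling shifted the median of all genes by at most -0.099. Of 47 regulators with a ratio, 11 under TMM, 11 under DESeq2 and 12 under upper-quartile scaling left their own counting interval. The lower limit of E2f6 (log2 ratio 0.093) was no larger than these shifts. Ccna1 and E2f1 fell below 4-fold under TMM, DESeq2 and upper-quartile scaling and with the pseudocount, Ccna1 also without the most read genes, Cdk5r2 with the pseudocount and E2f5 in the stranded sum. No regulator's ratio changed sign in the 7 settings that recomputed it. With the pseudocount, log2 ratios that rest on few cortex reads fell. Cdkn2c went from 7.64 to 5.24, Cdkn3 from 6.78 to 4.76 and E2f2 from 5.99 to 3.40. Cdkn2c and Cdkn3 then lay below Ccnb1 (5.68), Cdk1 (5.63) and Ccnb2 (5.44). Leaving out the 4 regulators with further stranded reads, chosen after seeing the data, gave 18, 2 and 1.31. Family shares moved by up to 37.5 percentage points in the stranded sum and 17.5 when reads were not divided by length.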
